A study of Cyanidioschyzon merolae with 29 samples.

Results

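The transcript described here is *CMK153C*, a protein-coding gene of the red microalga *Cyanidioschyzon merolae*, 1 of the 4984 genes counted, chosen because earlier results of these data placed it among the largest rises under nickel (Ni). The gene was picked because of its values in the 6 comparisons of Ni-exposed with untreated cultures, so those values are given as a description and carry no test. Poly(A)-selected RNA of strain NIES-3377, grown in hot and strongly acidic medium under continuous light, was sequenced in 29 libraries. Cultures received 1 mM Ni (3 libraries on each of days 5 and 10 and 2 on day 15) or 3 mM Ni (3 on each of days 5, 10 and 15), supplied as NiSO4 at the start of the culture. The untreated controls were sampled before exposure (day 0) and on days 5, 10 and 15, with 3 libraries each time. All cultures are of 1 strain with no genetic change, and each library is a bulk sample, so more RNA per cell and more cells with the RNA cannot be told apart.

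*C. merolae* is a unicellular alga of acidic hot springs, where low pH keeps metals dissolved. Ni is a cofactor of a few enzymes but is harmful in excess, because it can displace other metals from proteins and disturbs redox balance. Cells usually meet such an excess by adjusting the importers and exporters of metals in their membranes, by moving metals into the vacuole, whose proton pumps (V-ATPase) energise that transport, and by chaperones that protect damaged proteins. The function of *CMK153C* is not known, and the deposited table gives it no description.

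*CMK153C* lies on chromosome 11 of the ASM9120v1 assembly, at positions 421112 to 422020. Its coding length is 909 bases, or 303 codons. The nearest annotated features are *CMK152T*, a non-coding RNA that is not in the count table and ends 1843 bases away, and *CMK154C*, a subunit of the oligosaccharyltransferase, 2720 bases away. No annotated gene overlaps the locus.

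The libraries held 2602444 to 4067107 counts, and chloroplast-encoded genes, which mark the algal cell, took 2.10% to 6.82% of them. The libraries 3C at 3 mM Ni on day 10, untreated C3 on day 5 and untreated C1 on day 15 lay apart from the others of their group. The root mean square log2 difference of C1 from the other day 15 libraries was 0.975 and 1.04, against 0.391 between those. For C3 the values were 0.724 and 0.766 against 0.274, and for 3C they were 0.510 and 0.519 against 0.197. Results that rest on these 3 libraries are given with and without them below, where they are called the libraries that lay apart. Other libraries also differed from their group, among them 3C at 3 mM Ni on day 5 (0.470 and 0.486 against 0.196) and on day 15 (0.360 and 0.380 against 0.200). Untreated C4 on day 0 did so too (0.545 and 0.540 against 0.261). The closing section gives ranges with each library left out in turn. Values are CPM, counts scaled to a common library total after TMM (trimmed mean of M values) adjustment, and errors are standard deviations (SD) over libraries.

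In untreated cultures *CMK153C* was close to the detection limit. On day 0 the libraries C1, C2 and C4 held 5, 2 and 7 counts of it, or 1.81, 0.791 and 2.85 CPM. On day 5 the libraries C3, C4 and C5 held 5, 1 and 3 counts (1.73, 0.373 and 1.07 CPM). These 6 libraries overlapped between the days. On day 10, C1, C3 and C5 held 8, 5 and 5 counts (2.00, 1.47 and 1.42 CPM). On day 15, C1, C3 and C4 held 11, 1 and 5 counts (5.05, 0.289 and 1.54 CPM), so that day 15 contained both the highest and the lowest untreated value. The highest came from C1, which lay apart from the other day 15 libraries in all genes and also had the highest chloroplast share, 6.82%. The part of that difference in the *CMK153C* value was not tested.

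In cultures with 1 mM Ni the transcript was abundant on day 5 and declined afterwards. On day 5 cultures 1A, 1B and 1C held 283, 267 and 322 counts, or 82.2, 82.0 and 93.5 CPM. On day 10 cultures 1A, 1B and 1D held 162, 164 and 279 counts (52.1, 51.5 and 66.9 CPM), and on day 15 cultures 1C and 1E held 67 and 64 counts (19.4 and 21.0 CPM). The 3 days did not overlap at this dose, and each later day lay below the earlier one. How many of all genes separated in this way between days was not counted.

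At 3 mM Ni the highest values of the experiment were reached. On day 5 cultures 3C, 3D and 3E held 711, 620 and 472 counts, or 223, 183 and 137 CPM. On day 10 cultures 3A and 3B held 67 and 77 counts (22.3 and 19.2 CPM), whereas 3C held 349 (92.0 CPM). On day 15 cultures 3C, 3D and 3E held 250, 436 and 221 counts (66.5, 113 and 78.9 CPM). Day 5 lay above both later days without overlap, and the range of day 15 lay within that of day 10 except for 3D. Here too the share of all genes with such a separation was not counted.

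**Figure D1:**
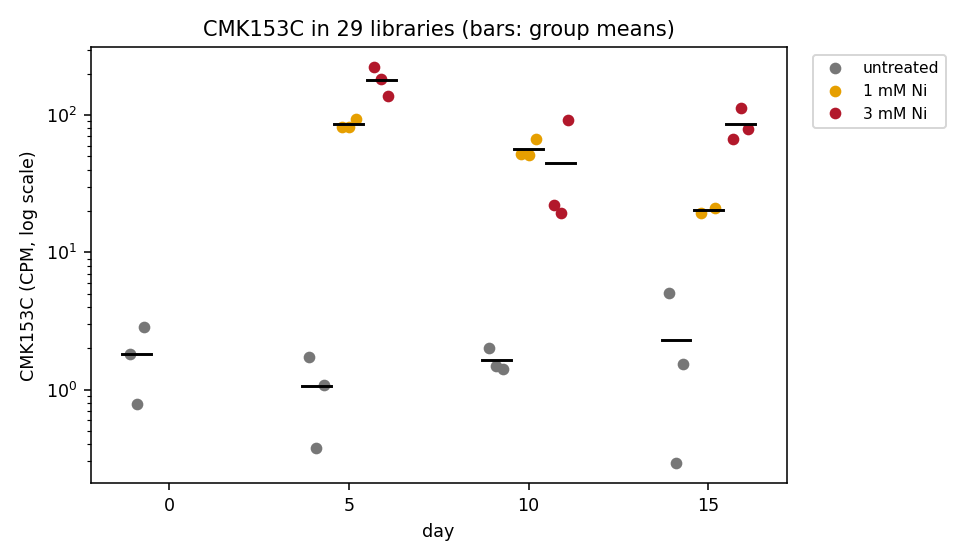
CMK153C in each of the 29 libraries in CPM (log axis) by day, with untreated, 1 mM Ni and 3 mM Ni side by side; points are libraries and bars are group means. All 17 Ni libraries lie at or above 19.2 CPM and all 12 untreated libraries at or below 5.05 CPM.

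Every Ni library therefore exceeded every untreated library. The lowest Ni value, 19.2 CPM in 3B on day 10, was 3.80 times the highest untreated value, 5.05 CPM in C1 on day 15. Among the 4796 genes tested, *CMK153C* was the only one with this property (0.0209%), and 2 genes (0.0417%) had all Ni libraries below all untreated ones. Within a single dose and day such separation is common: Ni libraries lay wholly above the untreated libraries of the same day for 12.7%, 11.2% and 7.51% of genes at 1 mM Ni on days 5, 10 and 15, and for 14.6%, 22.7% and 14% at 3 mM Ni. These shares and the separation of *CMK153C* come from the contrasts that chose the gene.

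The size of the difference from the untreated cultures followed the same course. The mean at 1 mM Ni was 85.9 ± 6.59 CPM, against 1.06 ± 0.677 CPM in untreated cultures on day 5 (SD, n = 3 each). On day 10 it was 56.8 ± 8.71 CPM at 1 mM Ni, against 1.63 ± 0.319 CPM in untreated cultures (SD, n = 3 each). On day 15 it was 20.2 ± 1.16 CPM (SD, n = 2) at 1 mM Ni, against 2.29 ± 2.47 CPM (SD, n = 3) in untreated cultures. The edgeR log2 fold changes were 6.27 (SE 0.65), 5.08 (SE 0.59) and 3.33 (SE 0.68) on the 3 days, a decline with time.

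At 3 mM Ni the mean was 181 ± 43.1 CPM on day 5, against 1.06 ± 0.677 CPM in untreated cultures (SD, n = 3 each). On day 10 it was 44.5 ± 41.2 CPM at 3 mM Ni, against 1.63 ± 0.319 CPM in untreated cultures, and on day 15 it was 86.0 ± 23.9 CPM at 3 mM Ni, against 2.29 ± 2.47 CPM in untreated cultures (SD, n = 3 each). The log2 fold changes were 7.35 (SE 0.64), 4.73 (SE 0.59) and 5.42 (SE 0.59). Because the untreated groups held 9, 18 and 17 counts in all, the summed counts bound these ratios only loosely: on day 5 the ratio of 3 mM Ni to untreated was 168, with a 95% Clopper-Pearson interval of 88.1 to 367, and on day 10 it was 27.7 (17.3 to 47.1). On day 15 the ratio was 45.5 (28.2 to 78.4). These intervals cover counting error only.

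The libraries that lay apart moved these values. Without C3 the log2 fold changes of day 5 became 6.81 at 1 mM Ni and 7.88 at 3 mM Ni. Without C1 those of day 15 became 4.44 at 1 mM Ni and 6.53 at 3 mM Ni. Without 3C the value at 3 mM Ni on day 10 became 3.62, since 3A and 3B alone remained.

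Ranked by log2 fold change among the 4796 genes, *CMK153C* had rank 2, 1 and 2 at 1 mM Ni on days 5, 10 and 15. At 3 mM Ni it had rank 2, 4 and 3. The genes above it were all close to 0 in the untreated libraries of that day. On day 5 the gene ahead of it at both doses was *CMG092C*, annotated as similar to a periplasmic protein p19, a family that binds iron in bacteria. It had 0 counts in every untreated library of day 5 and averaged 7.98 CPM at 1 mM Ni and 7.11 CPM at 3 mM Ni, which makes it at least 7.42-fold and at least 6.61-fold higher in the Ni cultures when each untreated library is set to a floor of 3 counts.

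On day 10 at 3 mM Ni *CMR322C*, *CMR295C* and *CMG092C* ranked above *CMK153C*. They averaged 3.33, 8.88 and 10.9 CPM there, and no untreated library of that day held more than 3 counts of them. On day 15 *CMT320C* ranked above it at 1 mM Ni, with 0.657 CPM, and *CMG092C* and *CMT320C* ranked above it at 3 mM Ni, with 7.40 and 1.61 CPM. In none of the 6 comparisons did a gene with a larger fold change have a higher mean CPM in the Ni cultures than *CMK153C*. Ranked instead by the difference of mean log2 CPM with a prior count of 2, which damps genes near 0, *CMK153C* had rank 1 in all 6.

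The gene next below it was *CMR119C* on day 5 at both doses and on day 15 at 3 mM Ni. *CMR119C* averaged 1.68 CPM at 1 mM Ni and 1.84 CPM at 3 mM Ni on day 5, with 0 counts in the untreated libraries of that day. On day 10 the next below was *CMR322C* at 1 mM Ni (0.873 CPM) and *CMO001C* at 3 mM Ni (2.27 CPM). On day 15 at 1 mM Ni it was *CMT284C*, a likely permease of the Git1p type (a yeast transporter of glycerophosphoinositol), with 18.6 CPM at 1 mM Ni and 3.26 CPM in untreated cultures, a log2 fold change of 2.46 (SE 1.25). That gene was the only neighbour in rank with a level close to that of *CMK153C*.

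**Figure D2:**
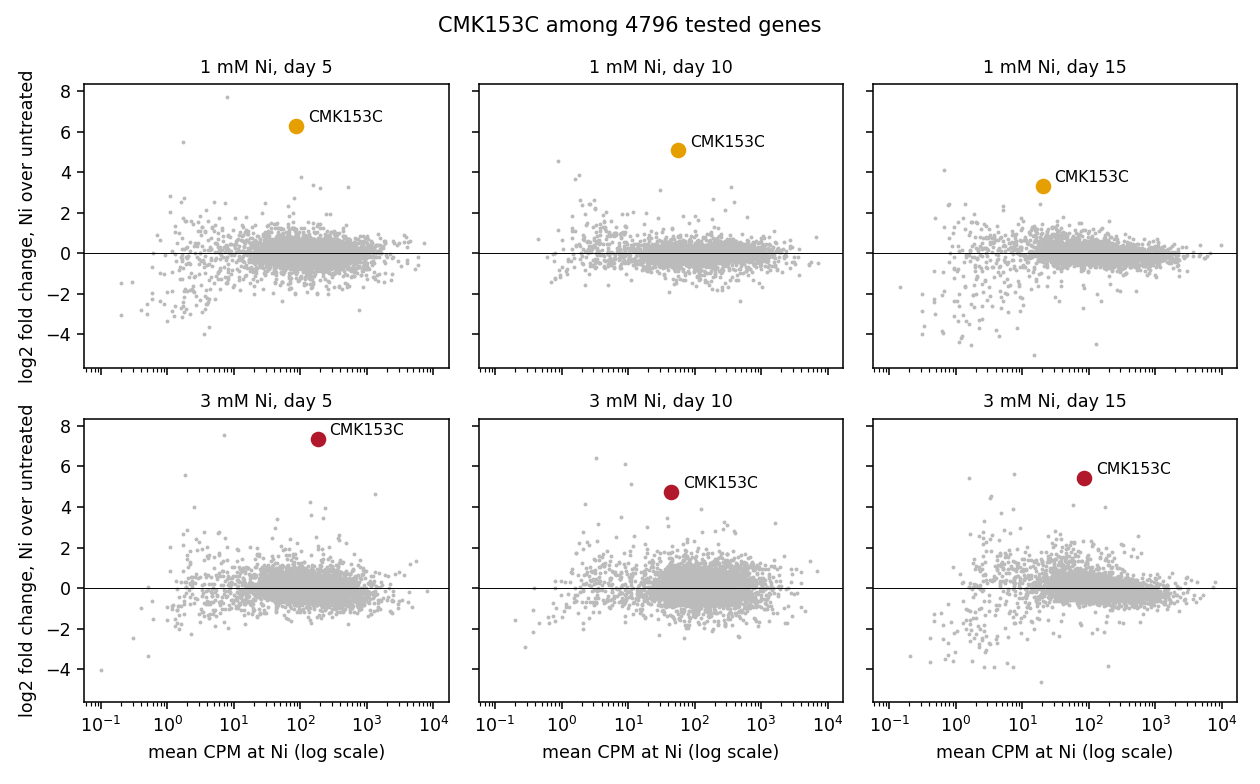
Log2 fold change of Ni over untreated (vertical axis) against mean CPM in the Ni cultures (log axis) for 4796 genes, 1 panel per dose and day; the large point is CMK153C. Genes with larger fold changes lie to its left, at lower CPM, in every panel that has any.

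Relative to other genes and per length, the transcript lay at the bottom of the range in untreated cultures and above 7.34% to 82.3% of genes in the Ni groups, passing the middle in 3 of the 6. Expressed as CPM per kilobase, its level at 3 mM Ni on day 5 was 199, above 82.3% of the 4579 genes with an annotated length. On days 10 and 15 at 3 mM Ni the CPM per kilobase were 48.9 and 94.6, above 21.7% and 53.9% of genes. At 1 mM Ni they were 94.5, 62.5 and 22.2 on days 5, 10 and 15, above 54.9%, 34.7% and 7.34% of genes. In untreated cultures they lay between 1.16 and 2.52, above 0.677% to 1.75% of genes.

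Between the doses the sign differed by day. On day 5 all 3 mM Ni libraries (137 to 223 CPM) lay above all 1 mM Ni libraries (82.0 to 93.5 CPM), with a log2 fold change of 1.08 (SE 0.39). On day 15 they again lay above (66.5 to 113 CPM at 3 mM Ni, 19.4 to 21.0 CPM at 1 mM Ni), with a log2 fold change of 2.09 (SE 0.50) at rank 9 of all genes. Wholly separated libraries of this direction were found for 14.9% of genes on day 5 and 12.7% on day 15. On day 10 the groups overlapped, at 19.2 to 92.0 CPM at 3 mM Ni and 51.5 to 66.9 CPM at 1 mM Ni, and the log2 fold change was -0.35 (SE 0.41). It was -1.46 without 3C and 0.018 without 3B, so the order of the doses on day 10 rested on single libraries.

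The low day 10 values at 3 mM Ni were those of cultures 3A and 3B, whose labels occur on no other day. Culture label 3C, the only one sequenced on all 3 days at 3 mM Ni, fell from day to day, with 223, 92.0 and 66.5 CPM on days 5, 10 and 15. Labels 3D and 3E had 113 and 78.9 CPM on day 15, against 183 and 137 CPM on day 5. At 1 mM Ni, labels 1A and 1B had 52.1 and 51.5 CPM on day 10, against 82.2 and 82.0 CPM on day 5, and label 1C had 19.4 CPM on day 15, against 93.5 CPM on day 5. In every Ni culture label sequenced more than once the later value was thus the lower one, in all 7 steps between successive samplings. Of these steps only that of 3C led from day 10 to day 15, and 3C differed from the others of its group on all 3 days. The untreated labels went both ways, with C1 at 1.81, 2.00 and 5.05 CPM on days 0, 10 and 15 and C3 at 1.73, 1.47 and 0.289 CPM on days 5, 10 and 15. The labels do not say whether libraries with 1 label on several days came from the same flask.

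In the group means, by contrast, the level at 3 mM Ni dropped by 2.02 on the log2 scale on day 10 against day 5 (SE 0.41) and rose by 0.95 on day 15 against day 10 (SE 0.40). At 1 mM Ni it dropped by 0.59 on day 10 against day 5 (SE 0.40) and by 1.5 on day 15 against day 10 (SE 0.50). Without 3C the 2 steps at 3 mM Ni were -3.13 and 2.06.

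**Figure D3:**
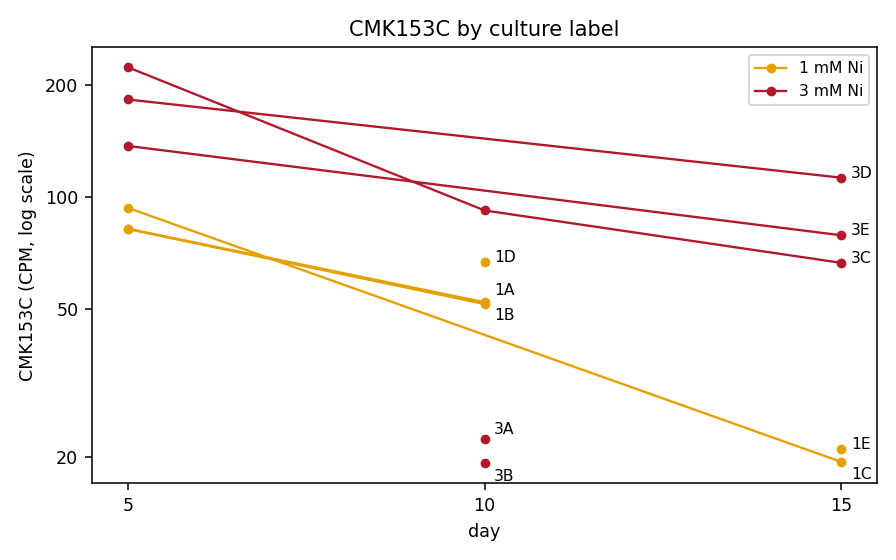
CMK153C in CPM (log axis) by day for the Ni cultures, with lines joining libraries of the same culture label. All 6 lines slope downward, and 3A and 3B, at 22.3 and 19.2 CPM, occur on day 10 only.

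Culture 3C on day 10 had 4.44 times the mean CPM of 3A and 3B. This log2 difference of 2.12 had rank 14 of 4796 genes, of which 149 were higher in 3C by more than 1 on the log2 scale and 74 lower by more than 1. The SD of log2 CPM of *CMK153C* among the 3 libraries was 1.23, against a median of 0.177 over all genes. The chloroplast share of counts was 3.28% in 3C and 2.91% and 3.33% in 3A and 3B. Some chloroplast-encoded genes were among those raised most in 3C. *CMV100C* had 44.0 CPM in 3C and a mean of 2.91 CPM in 3A and 3B, and *CMV098C* had 27.4 and 4.69 CPM. The cause of the difference of 3C was not tested.

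In the absence of Ni the counts were too few to follow the transcript over time. Against day 0, the log2 fold change of untreated cultures was -0.73 on day 5 (SE 1.08, edgeR quasi-likelihood test, Benjamini-Hochberg adjusted p = 0.617), -0.13 on day 10 (SE 0.94, adjusted p = 0.931) and 0.12 on day 15 (SE 0.95, adjusted p = 0.939). On the same days 20.3%, 21.1% and 19.5% of genes were higher and 19.4%, 18.9% and 16.6% lower than on day 0. The gene held 1 to 11 counts per untreated library and passed the filter on low counts through its Ni libraries, so these p-values do not show that the level stayed the same. The untreated libraries of days 5 to 15 also served as controls in the comparisons that chose the gene.

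The genes whose levels followed *CMK153C* most closely over the 29 libraries were found by Pearson correlation of log2 CPM. These values describe likeness only, since all points share the contrast of Ni with untreated cultures, the sequencing depth and the scaling. The 4795 other genes had a median r of -0.01, 13 exceeded 0.8 and 3 exceeded 0.9. The 10 closest lay on 7 chromosomes, none of them chromosome 11, and 4 of them have no description, a share close to the 41.8% of all tested genes.

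The closest was *CMI023C*, undescribed, with r = 0.92 over 29 libraries and 0.87 over the 17 Ni libraries. At 1 mM Ni its mean CPM was 246 (day 5), 177 (day 10) and 104 (day 15), and at 3 mM Ni it was 381, 182 and 197, against 63.0, 83.9 and 89.8 in untreated cultures of those days. It thus shared the peak on day 5 at both doses, but from a far higher untreated level than *CMK153C*.

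Next came *CMJ101C*, an hsp20-type small heat shock protein, a class that keeps damaged proteins from aggregating (r = 0.90). It averaged 1319 CPM at 3 mM Ni on day 5, against 53.5 CPM in untreated cultures of that day. On day 10 at 3 mM Ni it repeated the split between cultures, with 733 CPM in 3C and a mean of 251 CPM in 3A and 3B. The log2 difference of 3C from 3A and 3B was 1.54 for *CMJ101C*, the largest of the 10 close genes. For the others it lay between -0.28 (*CMP094C*) and 0.90 (*CML262C*), with 0.21 for *CMI023C*. The adjacent undescribed genes *CMI068C* and *CMI067C* on chromosome 9 had r = 0.90 and 0.89, of which *CMI068C* had 269 CPM at 3 mM Ni on day 5 and *CMI067C* only 5.90 CPM.

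The other close genes held varied functions. *CMR001C*, similar to a trefoil factor and the outermost annotated gene at 1 end of chromosome 18, had r = 0.89. The metal ion transporter *CML262C* (NRAMP2), a member of a family that carries divalent metals across membranes, had r = 0.86. *CMO185C*, named for a hedgehog protein, and *CMO066C*, an iron-sulfur subunit of the cytochrome b6-f complex of photosynthetic electron transport, both had r = 0.85. *CMQ429C*, similar to the kinetochore motor CENP-E, and the undescribed *CMP094C* followed with r = 0.82 and 0.81.

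None of these 10 shared the full separation of Ni from untreated libraries. *CML262C*, for example, ranged from 18.2 to 294 CPM in the Ni libraries, against 3.21 to 35.0 CPM in the untreated libraries, and the 2 ranges overlapped because of culture 1C on day 15. *CMO066C* ranged from 31.5 to 214 CPM under Ni, against 12.7 to 47.4 CPM in untreated libraries. Over the 17 Ni libraries alone 1 of the 10 was still among the 10 closest genes. There r was 0.80 for *CMO066C*, 0.79 for *CMJ101C* and 0.65 for *CML262C*, and between 0.29 and 0.59 for the others besides *CMI023C*.

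**Figure D4:**
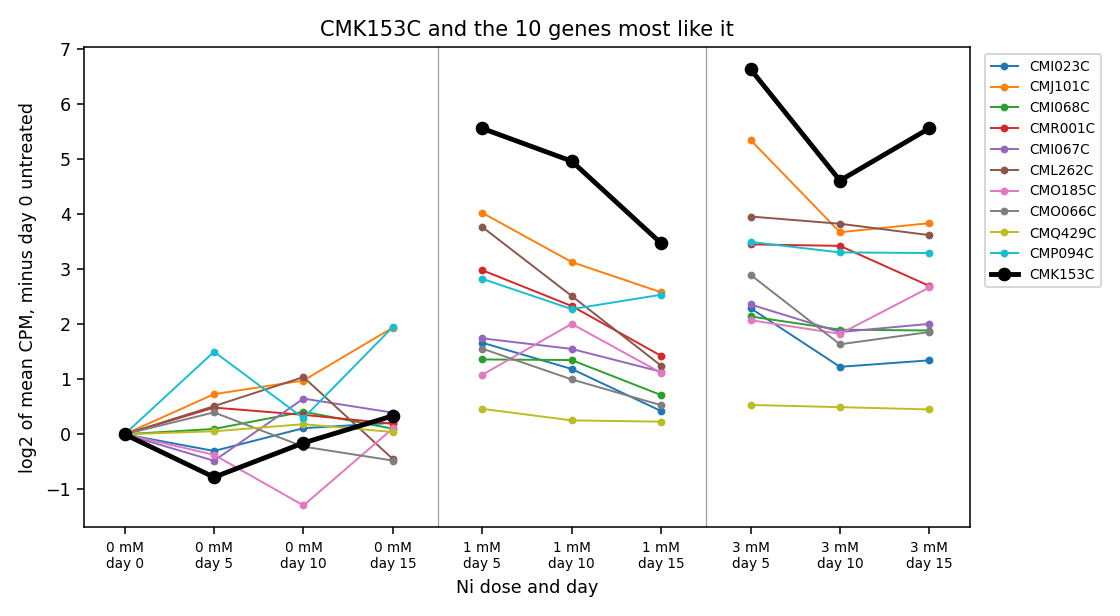
Log2 of mean CPM of each dose and day, minus that of untreated cultures on day 0, for CMK153C (thick black line) and the 10 genes with the highest correlation; lines join the days of 1 dose. CMK153C lies above the 10 others at each day of 1 and 3 mM Ni.

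At the other end, *CMO314C*, the photosystem II assembly factor HCF136, had the lowest correlation with *CMK153C* (r = -0.77). It averaged 278, 331 and 343 CPM at 3 mM Ni on days 5, 10 and 15, against 379, 396 and 455 CPM in untreated cultures of those days. At 1 mM Ni it averaged 321, 335 and 374 CPM. Its Ni libraries (266 to 404 CPM) overlapped its untreated libraries (349 to 600 CPM, day 0 included). Next were *CMA004C*, which has no description (r = -0.77), and *CMR473C*, a peptidylprolyl isomerase, an enzyme of protein folding (r = -0.74).

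When each library was set relative to the mean of its group, other genes came closest: *CMG006C*, *CMH176C*, *CML282C*, *CMS176C* and *CMT259C* had r between 0.79 and 0.86 over the 29 deviations. None of them was among the 10 closest genes above, and over the 29 libraries themselves their r was between -0.41 and -0.05. The largest deviations of *CMK153C* were those of 3C on day 10 and of the untreated day 15 libraries with 11 and 1 counts.

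Of the 2 annotated neighbours on each side of *CMK153C*, the 3 in the count table were tested against the untreated cultures. *CMK151C*, phytoene desaturase 3, an enzyme of carotenoid synthesis 9633 bases away, rose on day 10 (log2 fold change 0.95, SE 0.18, edgeR adjusted p = 8.27e-04) and day 15 (1.05, SE 0.18, adjusted p = 0.00173) in the 3 mM Ni cultures. It averaged 183 CPM on day 10 and 138 CPM on day 15 at 3 mM Ni, against 95.3 and 66.9 CPM in untreated cultures. On those days 15% and 5.71% of genes were higher at 3 mM Ni. At 3 mM Ni on day 5, when *CMK153C* was highest, its log2 fold change was 0.31 (SE 0.18, adjusted p = 0.254). With the compared groups alone in the fit the adjusted p of day 15 was 0.0558. With day 0 libraries as controls the day 10 call was lost (adjusted p = 0.659) and the day 15 value was -0.29. Here and below, day 0 controls differ from the Ni cultures in culture age as well as in Ni. The genes on the other side, *CMK154C* and *CMK155C*, did not pass the test in any of the 6 comparisons, with values at 3 mM Ni on day 5 of 0.30 (SE 0.18) and -0.31 (SE 0.21).

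A list of 15 metal transport and binding genes that the study names is set beside *CMK153C* here. The study picked them on these same samples, so their counts are no independent evidence. Another 7 ABC transporters in the study's table of metal genes were not in that list and are given after it. Of the 15, 4 were higher and 0 lower at 1 mM Ni on day 5, when 0.417% of all tested genes were higher and 0.0626% lower. On days 10 and 15 at this dose edgeR called 0 of them, and DESeq2 also called 0. Over all tested genes edgeR called 0.125% higher and 0.0209% lower on day 10 and 0% in either direction on day 15. With no adjustment for multiple tests (p under 0.05), 3 of the 15 were higher and 2 lower on day 10, and 1 was higher on day 15. The shares of all tested genes under that looser rule were 10.8% higher and 12.7% lower for day 5, 3.82% higher and 4.94% lower for day 10, and 3.82% higher and 5.28% lower for day 15. *CMK153C* had log2 fold changes of 5.08 and 3.33 on these 2 days.

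At 3 mM Ni 5 of the 15 were higher and 3 lower on day 5, 7 higher and 7 lower on day 10, and 6 higher and 0 lower on day 15. Of all tested genes 5.42% were higher and 4.77% lower on day 5, 15% higher and 14.2% lower on day 10, and 5.71% higher and 4.59% lower on day 15. The median log2 fold change of the 15 was -0.24, -0.48 and 0.38 on the 3 days, against -0.04, -0.02 and -0.04 over all tested genes. The 7 ABC transporters, pumps driven by ATP, were added after the data had been seen. Of these edgeR called 0 higher on any day at either dose and 3 lower on day 10 and 1 lower on day 15 at 3 mM Ni. The 3 were *CMT120C* (-0.68, adjusted p = 0.0131), *CMH235C* (-0.43, adjusted p = 0.0249) and *CMP028C* (-0.60, adjusted p = 0.0184), and that of day 15 was *CMO105C* (-0.44, adjusted p = 0.0429). Each of these calls was lost on leaving out single libraries: that of *CMT120C* without 3A or 3B (0.0587 and 0.0701), that of *CMH235C* without untreated C1 or C5, 3A or 3B (0.0616 to 0.159), that of *CMP028C* without untreated C3, 3A or 3B (0.106 to 0.126) and that of *CMO105C* without untreated C1 or any 3 mM Ni library (0.0722 to 0.277). With the compared groups alone in the fit the calls of *CMH235C*, *CMP028C* and *CMO105C* were lost too (0.0606, 0.0703 and 0.366). With day 0 controls none of these calls held (0.225 to 0.905), and the value of *CMP028C* was 0.21. With these 7 genes added to the 15, the median over the 22 was -0.19, -0.31 and -0.029 at 3 mM Ni on the 3 days. These medians are against untreated cultures of the same day. The positive median of the 15 on day 15 thus depended on the choice of list.

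The higher ones included importers. *CML262C* (NRAMP2) had log2 fold changes of 3.44 (SE 0.44), 2.79 (SE 0.42) and 4.00 (SE 0.47) at 3 mM Ni on days 5, 10 and 15. *CMS155C*, a probable zinc transporter of the ZIP family, had 4.24 (SE 0.82), 3.91 (SE 0.78) and 2.30 (SE 0.72). *CML004C*, similar to a high-affinity iron permease, had 2.20 (SE 0.37), 1.81 (SE 0.36) and 1.47 (SE 0.37), and *CMG102C*, similar to a zinc transporter, had 0.61, 0.74 and 0.71 (SE 0.16 each). All of these passed the edgeR test on each day at 3 mM Ni, and *CML262C*, *CMS155C*, *CML004C* and *CMG092C* were the 4 that passed at 1 mM Ni on day 5. On day 5 at 1 mM Ni the calls of *CMS155C*, *CML004C* and *CMG092C* were lost without untreated C4 (adjusted p = 0.254, 0.0800 and 0.0977), C5 (0.246, 0.130 and 0.130) or culture 1A (0.179, 0.0803 and 0.0612), and that of *CMS155C* also without 1B (0.148). All 4 calls of that day were lost with the compared groups alone in the fit (0.0939 to 0.0987). The calls of *CML262C* held with any library left out. With day 0 libraries as controls *CMS155C* was not called on any day, with log2 fold changes of 1.04, 0.90 and 0.69 at 3 mM Ni, and neither was *CMG102C* (0.35, 0.16 and 0.20). The day 0 libraries were themselves split for *CMS155C*, with 103 CPM in C1, 91.3 CPM in C2 and 6.92 CPM in C4. Against same-day controls, the calls of *CMS155C* and *CML004C* on day 15 at 3 mM Ni were lost without 3D (adjusted p = 0.203 and 0.125) or 3E (0.0799 and 0.0594). That of *CMS155C* was also lost without untreated C3 or C4 (0.0951 and 0.110) and that of *CML004C* without untreated C1 (0.0779). For *CMG102C* the call of day 5 was lost without untreated C5 or 3C (0.0621 and 0.0747) and that of day 15 without 3D (0.0515). With the compared groups alone in the fit the day 15 calls at 3 mM Ni of *CMS155C*, *CML004C* and *CMG102C* were lost (0.284, 0.200 and 0.161), as was the day 5 call of *CMG102C* (0.0908).

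Other members of the list also rose at 3 mM Ni. *CML032C*, described as a sodium-dependent transporter, had log2 fold changes of 0.94 on day 10 (SE 0.19, adjusted p = 0.00141) and 0.62 on day 15 (SE 0.19, adjusted p = 0.0442). *CMS307C*, which the study names as a copper transporter, had 1.19 on day 10 (SE 0.34, adjusted p = 0.0122). The day 15 call of *CML032C* was lost without untreated C1 or any 3 mM Ni library (adjusted p = 0.0853 to 0.183) and that of *CMS307C* without untreated C1, 3A or 3B (0.0558 to 0.0621). The day 15 call of *CML032C* was also lost with the compared groups alone in the fit (0.200). With day 0 controls the values of *CML032C* were -0.092 on day 10 and -0.44 on day 15.

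Among the lower calls were both importers and exporters. *CMJ138C*, similar to a metal ion transporter and named NRAMP1, fell by 0.70 on day 5 and by 0.63 on day 10 at 3 mM Ni on the log2 scale (SE 0.16 each). *CMT466C*, vacuolar iron transporter 1, fell by 0.50 and 0.58 (SE 0.14 each), and *CMC075C*, a probable manganese transporter, fell by 0.61 on both days (SE 0.17). *CMG212C*, similar to the iron exporter ferroportin, fell by 0.55 on day 10 (SE 0.16). The other lower calls of day 10 were *CMN251C*, an ABC transporter (-0.79, SE 0.23), *CMN003C* (-0.63, SE 0.20) and *CMR432C* (-0.48, SE 0.14). That of *CMN251C* was lost without untreated C1, 3A or 3B (edgeR adjusted p = 0.0596 to 0.0748). That of *CMN003C* was lost without untreated C1 or C5 or 3B (0.0618 to 0.109), and that of *CMR432C* without untreated C1, 3A or 3B (0.0522 to 0.104). The calls of *CMC075C* were lost without untreated C4 or C5 or 3C on day 5 (adjusted p = 0.160, 0.0900 and 0.184) and without untreated C3, 3A or 3B on day 10 (0.0531, 0.0649 and 0.0784). That of *CMT466C* on day 5 was lost without untreated C4 or C5, 3C or 3D (0.124, 0.0642, 0.123 and 0.0767). With the compared groups alone in the fit the day 5 calls of *CMC075C*, *CMT466C* and *CMJ138C* were lost too (0.182, 0.122 and 0.0570). So was the day 10 call of *CMN003C* (0.0517). The call of *CMG212C* was lost without 3A or 3B (0.0767 and 0.0824) and with day 0 controls (0.401). For *CMJ138C* day 0 controls turned the day 10 value to 0.43 and ended the call of day 5. On day 15 none of the 15 was lower by edgeR, with 3 lower before adjustment (p under 0.05) and 0 by DESeq2. Before adjustment 12.3% of all tested genes were higher and 14.7% lower on day 15, and 19.9% each way on day 10. The number of lower calls at 3 mM Ni, 10 over the 3 days, was 6 without 3A and 5 without 3B, and 14 without the 3 libraries that lay apart. How many of all tested genes were called in these refits was not counted, so the changes cannot be read as particular to the list.

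**Figure D5:**
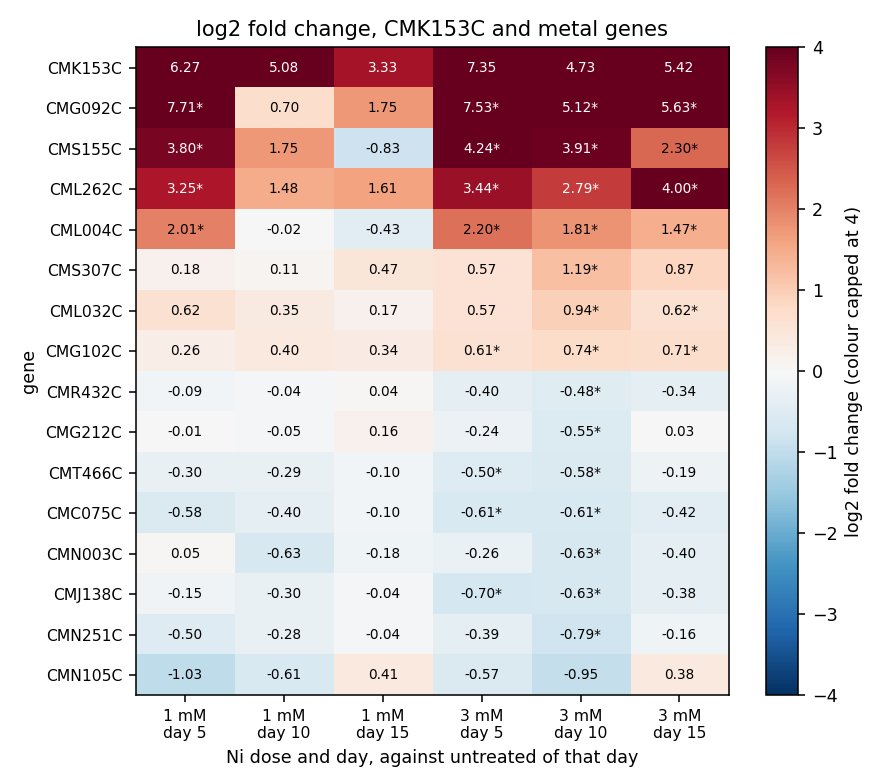
Log2 fold change of Ni over untreated cultures of the same day for CMK153C (top row, no test) and 15 metal genes named in the study, with an asterisk where the edgeR adjusted p was under 0.05. For CMG092C the fitted values depend on the prior count, since its untreated libraries held 0 to 3 counts on days 5, 10 and 15.

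A wider list of 28 genes whose description names a metal transporter or metal-binding protein shares 9 members with the 15 (60% of the 15 and 32.1% of the 28), among them the 4 that were higher on day 5 at 3 mM Ni. At 3 mM Ni 4 were higher and 4 lower on day 5, 6 were higher and 6 lower on day 10, and 4 were higher and 2 lower on day 15, with median log2 fold changes of -0.06, -0.14 and -0.18. Over all tested genes the medians were -0.04, -0.02 and -0.04, and the shares higher and lower were 5.42% and 4.77% (day 5), 15% and 14.2% (day 10) and 5.71% and 4.59% (day 15). On day 15 the median of the 28 was thus negative and that of the 15 positive. At 1 mM Ni 3 were higher on day 5, when 0.417% of all tested genes were, and edgeR and DESeq2 called 0 on days 10 and 15. Before adjustment (p under 0.05) 3 were higher and 2 lower on day 10, and 1 was higher and 1 lower on day 15. By that rule 3.82% of all tested genes were higher and 4.94% lower on day 10, and 3.82% and 5.28% on day 15. The 12 lower calls over the 3 days at 3 mM Ni were 7 without 3A and 18 without the 3 libraries that lay apart, again with no count over all tested genes in these refits. Of members outside the named 15, *CMP227C*, the iron store ferritin, rose by 0.42 on day 10 at 3 mM Ni (adjusted p = 0.0390), and *CMJ014C*, mercuric reductase, by 0.44 (adjusted p = 0.0162). *CMO315C*, similar to the mitochondrial magnesium transporter Mrs2p, fell by 0.79 (adjusted p = 1.72e-04) on that day. The call of *CMP227C* was lost without any 1 of untreated C1, C3 and C5, 3A and 3B (adjusted p = 0.0579 to 0.169), and its value was -0.31 with day 0 controls. That of *CMJ014C* was lost without untreated C1 or C5 or without 3A (0.0941, 0.0630 and 0.0804), and with the compared groups alone in the fit (0.0542).

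The subunits of the V-ATPase were examined because the study linked *CMK153C* to them through a database of protein interactions. Of the 6 genes found by description, which include a vacuolar pyrophosphatase that is not a V-ATPase subunit, 1 rose and 0 fell at 3 mM Ni on day 5, when 5.42% of all tested genes were higher and 4.77% lower. This was *CMP123C*, subunit B of the catalytic V1 sector, with 112 CPM at 3 mM Ni and 71.2 CPM in untreated cultures (log2 fold change 0.65, SE 0.16, edgeR adjusted p = 0.0117). It is itself among the genes so linked to *CMK153C*. The call was lost without untreated C4 or C5 or without 3C (adjusted p = 0.0628, 0.0595 and 0.0619), and with day 0 controls the value was -0.014. It was also lost with the compared groups alone in the fit (0.0729). On days 10 and 15 at 3 mM Ni, and on all days at 1 mM Ni, edgeR called 0 of the 6, as did DESeq2. Before adjustment (p under 0.05) none passed at 3 mM Ni on day 10, and 1 was higher and 1 lower on day 15, when 12.3% of all tested genes were higher and 14.7% lower by that rule. Under the same rule 2 were higher at 1 mM Ni on day 5 (10.8% of all tested genes) and 0 on the later days.

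Another 4 V-ATPase subunits are described in other words. Their median log2 fold change at 3 mM Ni was 0.16 on day 5 and 0.24 on day 10, against -0.04 and -0.02 over all tested genes. On both days edgeR called 0 higher and 1 lower, and DESeq2 called 1 higher and 1 lower. Over all tested genes edgeR called 5.42% higher and 4.77% lower on day 5, and 15% and 14.2% on day 10. Over all genes DESeq2 called 348 higher and 294 lower on day 5, and 835 and 703 on day 10. *CMD095C*, subunit a of the membrane sector, had 0.50 on day 5 (SE 0.17, edgeR adjusted p = 0.0540), with all 3 mM Ni libraries above the untreated ones. *CMH200C*, subunit G, had 0.46 on day 10 (SE 0.18, adjusted p = 0.0514). The lower one, *CMQ323C*, a proteolipid subunit of the membrane-embedded rotor, fell by 0.68 on day 5 (SE 0.14, edgeR adjusted p = 0.00404) and by 0.52 on day 10 (SE 0.14, adjusted p = 0.00820) at 3 mM Ni. Its day 5 call was lost with the compared groups alone in the fit (adjusted p = 0.10) and its day 10 call without 3B (0.0686). Among the other genes linked to *CMK153C*, *CMB121C*, which the study groups with the Gtr1/RagA GTPases of nutrient signalling, fell by 0.38 at 3 mM Ni on day 10 (SE 0.14, adjusted p = 0.0370), a call that was lost without untreated C1 or C5 or any 1 of the 3 mM Ni libraries (adjusted p = 0.0506 to 0.170), and the value was 0.023 with day 0 controls. *CMP251C*, similar to ragA, and *CMK039C*, the light-signalling protein COP1, had log2 fold changes between -0.13 and 0.22 at 3 mM Ni and did not pass the test. *CMO274C* had 0 counts in all libraries and was not tested.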

How the data were processed

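The authors used Trimmomatic 0.39 for trimming, Hisat2 for alignment to ASM9120v1, GATK for removal of optical duplicates and HTSeq-count (0.9.1 in the submitters' processing notes) for strand-specific counting. They deposited these counts without normalization for 4984 genes in 29 libraries. Samples were grouped by dose and day from their labels. One edgeR 4.0.16 quasi-likelihood fit in R 4.3.3 covered all libraries, with TMM factors, filterByExpr (4796 genes kept) and 1 coefficient per group. P-values were adjusted by Benjamini-Hochberg over all tested genes, with calls at 0.05. They set a group difference against the spread between libraries within groups, estimated over all 29. This fit treated libraries with 1 culture label on several days as independent. The SE is the absolute log2 fold change over the root of F. Correlations used log2 CPM with prior count 2. Positions come from RefSeq (ASM9120v1), which matched 4731 genes by locus tag. The gene and lists were chosen with earlier results of these data known.

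The genes named besides *CMK153C* are its 10 closest and 3 most opposed genes, the 5 closest by deviation from group means, the 3 highest fold changes and the next ranks in each comparison, and list members. List words left out 4 V-ATPase subunits, which were added after the descriptions were seen, and 7 ABC transporters of the study's table were added after the data were seen. A search for similar proteins was not run, and sequences were not used here. Alternatives were DESeq2 1.42.0, its size factors, other filters and controls, nuclear genes, compared groups alone, a culture block and leaving out each library. The ranking by mean log2 CPM, the correlations over Ni libraries alone and the fit without 3 libraries were added after seeing the data. The fit was tested on simulated data.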

Additional observations from a re-analysis of the deposited data

How the results depend on the processing

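No alternative changed the direction of the 6 differences of *CMK153C* between Ni and untreated cultures: 71 of 89 values moved by less than 1 SD between libraries, 18 by more and 0 reversed. Shrunken DESeq2 fold changes were 3.61 (day 5), 3.06 (day 10) and 1.75 (day 15) for 1 mM Ni, and 4.47, 2.80 and 3.32 for 3 mM Ni. With day 0 controls the day 5 values were 5.54 at 1 mM Ni and 6.62 at 3 mM Ni. With each library left out in turn the values at 1 mM Ni ranged from 5.90 to 6.81, 4.94 to 5.28 and 2.73 to 4.44 on the 3 days, and those at 3 mM Ni from 6.97 to 7.88, 3.62 to 5.10 and 4.82 to 6.53.

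Without the 3 libraries that lay apart, a choice made after seeing the data, the values for 1 mM Ni were 6.81 (day 5) and 4.44 (day 15), and for 3 mM Ni 7.88 (day 5), 3.62 (day 10) and 6.53 (day 15). Between the doses on day 10 the value was -1.46, with -1.46 to 0.018 over single libraries left out. The changes within untreated cultures were 1.13 for day 10 against day 5, -0.85 for day 15 against day 10 and -0.99 for day 15 against day 0 (edgeR adjusted p = 0.313), and those at 3 mM Ni were -3.13 for day 10 against day 5 and 2.06 for day 15 against day 10. With single libraries left out, the untreated changes against day 0 ranged from -0.46 to 0.31 (day 10) and from -0.98 to 0.73 (day 15), those between successive days from 0.22 to 1.13 (day 10) and from -0.85 to 0.86 (day 15), and the successive changes at 3 mM Ni from -3.13 to -1.65 (day 10) and from 0.58 to 2.06 (day 15). The cause was not tested.

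Deviations of libraries with the same culture label from their group means had a median correlation of -0.02 in untreated, -0.03 in 1 mM Ni and -0.18 in 3 mM Ni cultures. There were only 10, 3 and 5 such pairs, and each group mean rests on few libraries. These values therefore cannot show whether the labels pair the libraries. With the label as a random replicate block the untreated change was -0.37 for day 15 against day 0 (limma adjusted p = 0.859) and -0.31 for day 15 against day 10, and with a fixed block that against day 0 was -0.19 (edgeR adjusted p = 0.930). The 3 untreated changes against day 0, the only ones tested, did not pass under any alternative (adjusted p of 0.206 or more), which at 1 to 11 counts says nothing of stability. The random block also ended the calls of *CMS155C* and *CML004C* at 1 mM Ni on day 5 (adjusted p = 0.0922 and 0.0629) and at 3 mM Ni on day 15 (0.0594 and 0.0768), of *CML032C* and *CMO105C* on day 15 (0.0558 and 0.0642) and of *CMP227C* on day 10 (0.0538), these at 3 mM Ni.

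With the compared groups alone in the fit, the list of 15 metal genes gave 11 higher calls at 3 mM Ni over the 3 days in place of 18, and the 28 found by description gave 9 higher and 6 lower in place of 14 and 12. With single libraries left out the lower calls ranged from 5 to 12 for the 15 and from 7 to 16 for the 28. The shares of all tested genes called in these refits were not counted, so the changes cannot be read as particular to the lists. With day 0 controls 11 calls at 3 mM Ni turned: the log2 fold change was 0.43 for *CMJ138C*, -0.092 for *CML032C*, 0.073 for *CMN003C*, 0.071 for *CMR432C*, 0.023 for *CMB121C*, 0.21 for *CMP028C* and -0.31 for *CMP227C* on day 10, -0.014 for *CMP123C* on day 5, and -0.44 for *CML032C*, -0.29 for *CMK151C* and 0.079 for *CMO315C* on day 15. Among these turned values only that of *CMJ138C* passed the edgeR test (adjusted p = 0.0429). Day 0 controls differ in culture age as well as in Ni. Without Ni, 21.1% of genes were higher and 18.9% lower on day 10 than on day 0. Of the 10 closest genes 7 stayed with Spearman's rho, 6 with group means and 9 with a prior count of 0.5. A minimum of 10 counts in every library removed *CMK153C*, so it gave no value there. Its 1 to 11 counts per untreated library limit every fold change.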
